A study of Mus musculus with 12 samples.

Results

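Kmt2e, formerly Mll5, is the gene knocked out in the mutant mice, and AI506816, Srpk2, Pus7 and Rint1 are the 4 measured genes that follow it on mouse chromosome 5. These 5 genes are described here out of 22180 gene symbols tested. Kmt2e was taken as the targeted gene. AI506816 and Srpk2 were chosen by the log2 differences between genotypes on these same arrays, and Pus7 and Rint1 were taken as the next neighbours. The genotype differences of the 4 neighbours are therefore given as a description without a test. Each of the 5 genes had 1 probe set, the group of probes summarised to 1 value per array, so the single and the brightest probe set coincide. All 5 had a mean above the median symbol, 3.17 on the log2 signal scale.

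The arrays measured RNA of LSK cells, the bone marrow fraction that carries Sca1 and Kit and no lineage markers and that contains haematopoietic stem cells and early progenitors. All mice were on the C57BL/6 strain. The 4 groups of 3 arrays were Mll5-/- with NAC, wild type (Mll5+/+) with NAC, Mll5-/- mock and wild-type mock. NAC is N-Acetyl-L-Cysteine, an antioxidant, given at 1 g per liter in the drinking water from the mating of Mll5+/- parents onward, so that it covered the whole life of the offspring, whereas mock mice received none. The labels do not give the deleted part of the gene, the age of the mice or whether animals were pooled. Nor do they state that each array had its own mouse, so the p-values cover the spread between these arrays alone, and part of it may be technical.

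Kmt2e encodes a chromatin protein with a PHD finger, which binds methylated lysine 4 of histone H3, and a SET domain of the kind found in histone methyltransferases, and mice without it are known for impaired haematopoietic stem cells. Srpk2 is a kinase that phosphorylates the serine- and arginine-rich splicing factors. Pus7 is a pseudouridine synthase, an enzyme that converts uridine to pseudouridine in RNA. Rint1 belongs to a tethering complex for vesicles that return from the Golgi to the endoplasmic reticulum. AI506816 is annotated as a long noncoding RNA and no function is given for it here.

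In the reference annotation the order is Kmt2e, Srpk2, AI506816, Pus7 and Rint1, with no other measured gene among them. The annotated ranges of Kmt2e and Srpk2 overlap, whereas those of the other adjacent pairs do not. The part of each gene that its probe set reads, and whether it separates the strands, are not given. The start regions of AI506816 and of Srpk2 are shown because these 2 adjacent genes had the largest genotype differences of the 5, in opposite directions. They are RefSeq sequences of build GRCm38.p6, each covering 250 bases before to 50 bases after an annotated start, read 5′ to 3′ on the minus strand, and capitals mark the motif matches described next.
AI506816, chr5:23712618-23712917: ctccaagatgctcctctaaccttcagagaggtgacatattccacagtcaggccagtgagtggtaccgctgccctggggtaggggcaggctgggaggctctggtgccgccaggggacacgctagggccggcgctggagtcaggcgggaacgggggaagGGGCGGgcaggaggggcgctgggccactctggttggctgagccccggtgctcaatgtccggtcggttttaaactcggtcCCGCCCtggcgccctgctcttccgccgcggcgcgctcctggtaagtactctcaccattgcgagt
Srpk2, chr5:23675918-23676217: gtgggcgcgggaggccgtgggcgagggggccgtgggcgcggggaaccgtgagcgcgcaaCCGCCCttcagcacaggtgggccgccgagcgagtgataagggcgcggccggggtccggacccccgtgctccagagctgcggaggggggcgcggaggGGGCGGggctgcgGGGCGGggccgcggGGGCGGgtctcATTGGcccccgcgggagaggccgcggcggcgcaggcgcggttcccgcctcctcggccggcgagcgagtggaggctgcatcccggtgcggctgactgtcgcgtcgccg

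The 3 motifs searched on both strands were the GC box GGGCGG, the CCAAT box CCAAT and the TATA box TATAAA, and no match overlapped another. The AI506816 region held 2 GC boxes and neither of the other motifs, with 66.3% G and C bases and 21 CpG dinucleotides. The Srpk2 region held 4 GC boxes and 1 CCAAT box, with 80.3% G and C bases and 47 CpG dinucleotides. Srpk2 has 2 further annotated starts, one without any of these motifs and the other with 1 TATA box. The first of these had 44.3% G and C bases and 7 CpG dinucleotides, and the other 38.3% and 5. Pus7 had 2 GC boxes at one of its 2 starts and 1 at the other, and Rint1 had no match of the 3 motifs at its single start. Of all 32851 regions of this length in the table, 35.7% held a GC box, 37.4% a CCAAT box and 13.6% a TATA box. The median region had 52.7% G and C bases and 7 CpG dinucleotides. A match is a description of letters and not of a bound site.

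Median log2 signals over all probe sets lay between 2.89 and 2.96, and the correlation of any 2 arrays across genes, which are not independent replicates, was 0.976 to 0.988. Mll5-/- NAC replicate 1 and wild-type mock replicate 1 had the lowest array weights, 0.54 and 0.71. The other arrays ran from 0.87 to 1.35, and no rule for outlying arrays was applied. Kit, a defining surface receptor of LSK cells, had a log2 signal of 8.96 ± 0.18 in Mll5-/- cells and 9.13 ± 0.11 in wild-type cells (SD, n = 6 each). Cd34, an antigen of progenitor cells, had 10.34 ± 0.24 in Mll5-/- cells and 10.39 ± 0.10 in wild-type cells. Flt3, a receptor of early multipotent progenitors, had 8.14 ± 0.51 in Mll5-/- cells and 8.88 ± 0.25 in wild-type cells, a log2 difference of -0.74 (SE 0.17, adjusted p = 0.225 in limma), the largest of the LSK markers measured. Slamf1, a stem cell receptor, differed by 0.34 (SE 0.21) and Meis1, a transcription factor of stem cells, by 0.01 (SE 0.10). Of these 5 markers 3 were thus lower and 2 higher in Mll5-/- cells, none passed in limma, and their mean level ran from 7.43 to 8.07 on the Mll5-/- arrays and from 7.84 to 8.31 on the wild-type arrays. Ly6a, which encodes Sca1, was not analysed here. The T cell markers averaged 2.40 to 2.55 on the Mll5-/- arrays and 2.44 to 2.65 on the wild-type arrays, over 5 genes.

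The comparison of genotypes asked first how the targeted gene itself read. With NAC, Kmt2e had log2 signals of 7.02, 7.33 and 7.01 in Mll5-/- cells, against 7.37, 7.78 and 7.50 in wild-type cells. In mock, it had 7.51, 7.38 and 6.93 in Mll5-/- cells, against 7.49, 7.39 and 7.68 in wild-type cells. Every Mll5-/- array lay below every wild-type array with NAC, as was the case for 6.05% of all genes, and the groups overlapped in mock. Over both treatments the mean was 7.20 in Mll5-/- cells and 7.54 in wild-type cells, a log2 difference of -0.34 (SE 0.12, 95% interval -0.60 to -0.08, n = 6 each). It did not pass in limma (adjusted p = 0.419 over all genes), where 0.00902% of genes passed. The unadjusted p of Kmt2e in limma was 0.015, and 9.08% of all genes had one under 0.05. In bulk samples, fewer cells of a type and less RNA per cell cannot be told apart.

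An exact permutation test of Kmt2e alone, with genotype labels exchanged within each treatment in all 400 arrangements, gave a two-sided p = 0.025, where the smallest possible is 0.005. Leaving out wild-type mock replicate 3 gave 0.075, and it was 0.05 on leaving out Mll5-/- mock replicate 3, Mll5-/- NAC replicates 1 or 3, or wild-type NAC replicates 2 or 3. It was 0.08 without both arrays of lowest weight. On the linear scale, the Kmt2e signal in Mll5-/- cells was 0.791 of that in wild-type cells. Because the deleted part of the gene and the part read by the probe set are not given, this value does not check the genotype labels.

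AI506816 was low on all Mll5-/- arrays and high on all wild-type arrays. With NAC, it had log2 signals of 4.38, 4.81 and 4.37 in Mll5-/- cells, against 6.32, 6.25 and 6.40 in wild-type cells. In mock, it had 4.28, 3.89 and 3.29 in Mll5-/- cells, against 6.58, 6.61 and 5.87 in wild-type cells. The highest Mll5-/- value, 4.81, was below the lowest wild-type value, 5.87. Such a separation of the 6 Mll5-/- arrays below the 6 wild-type arrays occurred in 0.234% of all genes, and nothing is read from it because the gene was chosen for this contrast. The signal was 3.49-fold lower in Mll5-/- cells with NAC and 5.79-fold lower in mock. In mock alone, 5.46% of all genes had all Mll5-/- arrays below all wild-type arrays.

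The SD of the AI506816 signals was 0.25 in Mll5-/- cells and 0.08 in wild-type cells with NAC, against 0.50 in Mll5-/- cells and 0.42 in wild-type cells in mock (n = 3 each). The lowest mock values of the 2 genotypes, 3.29 and 5.87, both came from replicate 3, and these numbers do not pair the arrays. Leaving out any single array gave a genotype difference between -2.29 and -2.04 over both treatments. Detection calls are not part of the table used here, so how far the Mll5-/- signals lay above background is unknown.

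Among all 22180 genes, 4 others had an average signal at least as much lower in Mll5-/- cells as AI506816. They were Jchain, which joins the units of secreted antibodies, and 3 immunoglobulin segments, among them Igh-VS107, all singled out after their values were seen. Their log2 differences ran from -4.16 (SE 1.11) for a kappa variable segment to -2.75 (SE 0.68) for Igh-VS107. In each of them the genotypes overlapped, and their standard errors were larger than the 0.17 of AI506816. The plasma cell markers Jchain, Sdc1 and Xbp1 averaged 4.85 to 6.30 on the Mll5-/- arrays and 6.08 to 6.89 on the wild-type arrays, and all 3 had a lower mean in Mll5-/- cells. This average includes Jchain (-2.78, SE 0.43), named above for its values, so nothing is read from the average. Sdc1 differed by -0.515 (SE 0.10) and Xbp1 by -0.04 (SE 0.12). The 6 granulocyte and monocyte markers averaged 4.14 to 5.33 on the Mll5-/- arrays and 4.91 to 5.55 on the wild-type arrays, with 5 of 6 lower. The 4 B cell markers averaged 3.66 to 4.29 on the Mll5-/- arrays and 3.92 to 4.13 on the wild-type arrays, with 4 of 4 lower. Of these lower markers, Ngp and Itgam of granulocytes and monocytes and Pax5 and Cd79b of B cells lay within 1 SE of no difference. The largest differences of the granulocyte and monocyte markers were those of S100a9 (-1.19, SE 0.23) and S100a8 (-1.05, SE 0.32). Both had an unadjusted p under 0.05 in limma, as did 9.08% of all genes. Ly6g differed by -0.26 (SE 0.13) and Csf1r, the higher one, by 0.03 (SE 0.23). Cd79a of B cells differed by -0.37 (SE 0.24) and Ms4a1 by -0.11 (SE 0.08). Of 2 erythroid markers 2 were higher, and of 3 natural killer cell markers 2 were higher and 1 lower. The averages of these lists differed by 0.08 and -0.04. No marker of any of these cell types passed in limma, and the averages of each list overlapped between genotypes. The part of these cell types in the AI506816 values was not tested.

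**Figure D1:**
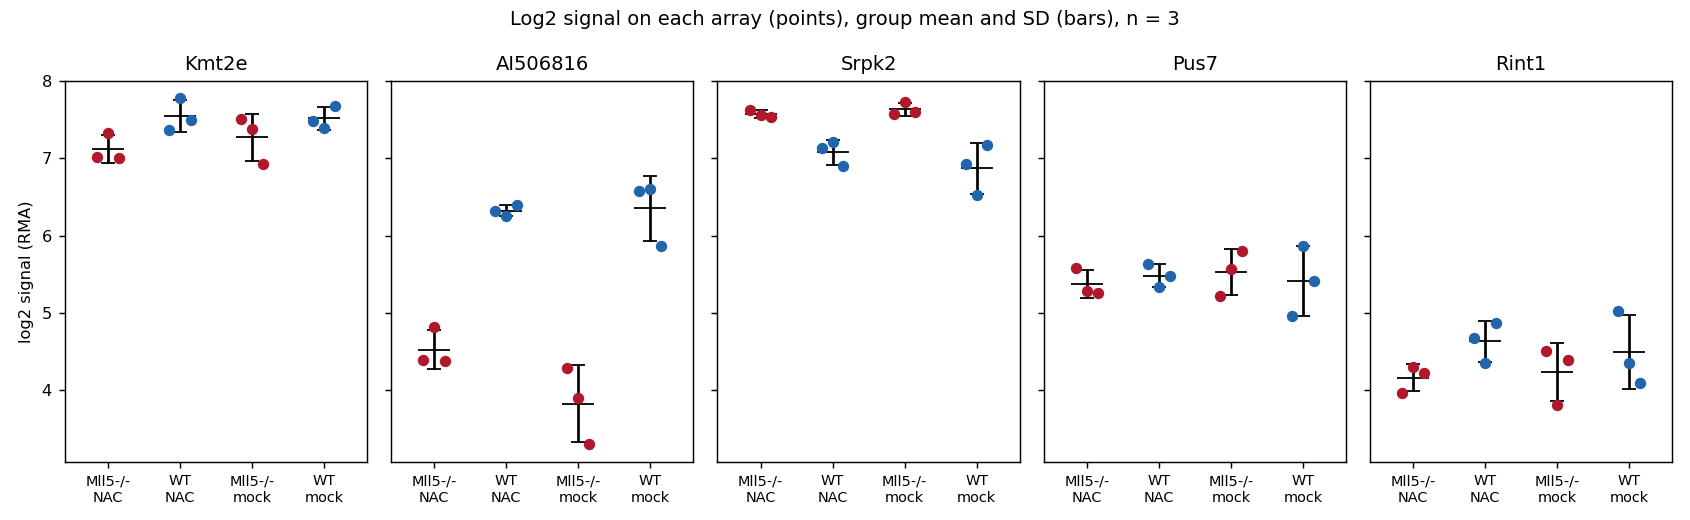
Log2 signal (vertical axis) of each array by group (horizontal axis, red for Mll5-/- and blue for wild type), with group mean and SD, n = 3. AI506816 separates the genotypes downward and Srpk2 upward in both treatments, whereas the Pus7 points of all groups share the range from 4.95 to 5.87.

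Srpk2, the neighbour between Kmt2e and AI506816, was higher on every Mll5-/- array. With NAC, its log2 signals were 7.63, 7.56 and 7.54 in Mll5-/- cells, against 7.14, 7.21 and 6.90 in wild-type cells. In mock, they were 7.58, 7.73 and 7.60 in Mll5-/- cells, against 6.93, 6.52 and 7.17 in wild-type cells. The lowest Mll5-/- value, 7.54, was above the highest wild-type value, 7.21, a separation seen upward in 0.311% of all genes. The signal was 1.41-fold higher in Mll5-/- cells with NAC and 1.70-fold higher in mock. Within the single treatments, 6.39% of all genes had all Mll5-/- arrays above all wild-type arrays with NAC and 5.94% in mock. Nothing is read from these separations, since Srpk2 was chosen on them. The 6 Mll5-/- arrays ran from 7.54 to 7.73, against 6.52 to 7.21 for the wild-type arrays. A difference over both treatments at least as large upward as the 0.63 (SE 0.11) of Srpk2 was found in 49 genes, Srpk2 included.

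Pus7 showed no such separation. With NAC, it had log2 signals of 5.58, 5.28 and 5.25 in Mll5-/- cells, against 5.63, 5.33 and 5.47 in wild-type cells. In mock, it had 5.21, 5.57 and 5.80 in Mll5-/- cells, against 4.95, 5.87 and 5.41 in wild-type cells. The groups overlapped in both treatments, and the log2 difference over both was 0.01 (SE 0.15, 95% interval -0.32 to 0.33).

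Rint1 had a lower mean in Mll5-/- cells in both treatments. With NAC, it had log2 signals of 3.96, 4.29 and 4.22 in Mll5-/- cells, against 4.67, 4.34 and 4.87 in wild-type cells. Its mock values were 4.50, 3.80 and 4.39 in Mll5-/- cells, against 5.02, 4.35 and 4.09 in wild-type cells. All Mll5-/- arrays lay below the wild-type arrays with NAC, as in 6.05% of all genes, and the groups overlapped in mock. The log2 difference over both treatments was -0.36 (SE 0.17, 95% interval -0.73 to 0.01). It was -0.18 without both arrays of lowest weight.

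**Figure D2:**
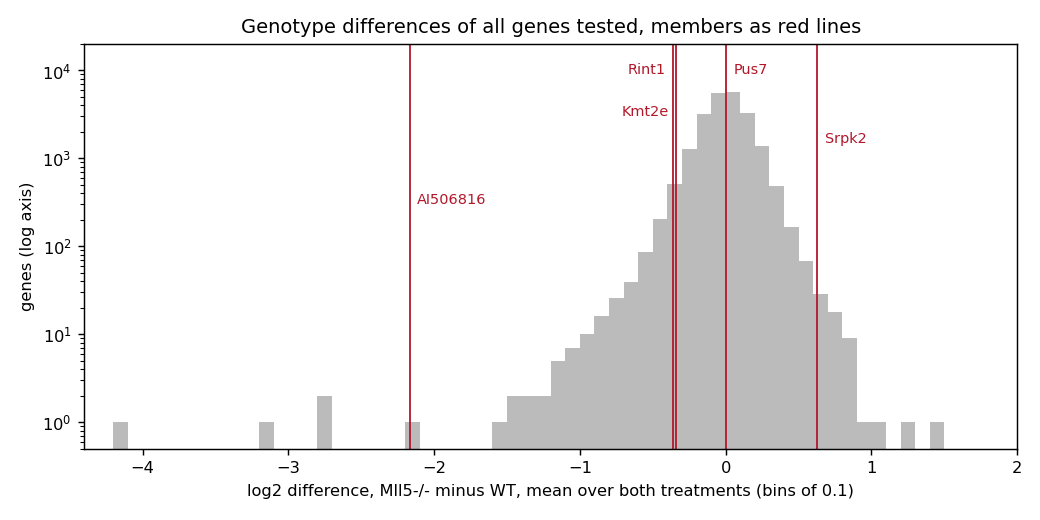
Number of genes (vertical log axis) by log2 difference, Mll5-/- minus wild type over both treatments (horizontal axis, bins of 0.1), with the 5 genes as red lines. AI506816 at -2.17 lies far from the bulk of genes, Srpk2 at 0.63 lies in the upper tail, and Pus7 at 0.01 lies at the centre.

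Genes farther out on the chromosome, beyond the 5, were compared between genotypes next. The nearest 20 other measured genes on each side of Kmt2e gave 40 genes, of which 22 had a higher and 18 a lower mean in Mll5-/- cells. None of the 40 passed in limma over both treatments, and 4, or 10%, had an unadjusted p under 0.05, against 9.08% of all genes. These 4 were Fam126a (-0.38, SE 0.12), Gsap (-0.36, SE 0.11), Armc10 (-0.28, SE 0.13) and Lrrc17 (0.25, SE 0.10), with adjusted p from 0.339 to 0.540 in limma, and were named after their values were seen. The median size of the log2 difference was 0.08 over the 40 genes and 0.10 over all genes. The largest was 0.39, beside 0.63 for Srpk2 and 2.17 for AI506816. Nothing is read from this, since Srpk2 and AI506816 were chosen by their genotype differences and the 40 genes were not. Kmt2e (-0.34) and Rint1 (-0.36) lay within the range of the 40 genes.

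Among these 40, Fam126a was the single gene whose genotypes did not overlap, 2.5% of them, against 0.546% of all genes. Fam126a, which encodes hyccin, a partner of a phosphatidylinositol kinase at the plasma membrane, lies 3 measured genes past Rint1. With NAC, it had log2 signals of 4.46, 4.51 and 4.41 in Mll5-/- cells, against 4.67, 5.02 and 4.64 in wild-type cells. Its mock values were 4.07, 4.51 and 4.53 in Mll5-/- cells, against 5.14, 4.66 and 4.65 in wild-type cells. The gap between the genotypes was narrow, with 4.53 as the highest Mll5-/- and 4.64 as the lowest wild-type value. Without Mll5-/- mock replicate 1, the count of such genes was 2. It was also 2 among 80 genes when 40 were taken on each side, where Ptpn12, a tyrosine phosphatase, was added.

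On the other side of Kmt2e, the measured gene next to it is 5031425E22Rik, a long noncoding RNA. With NAC, it had log2 signals of 5.62, 4.72 and 4.48 in Mll5-/- cells, against 5.45, 4.85 and 4.77 in wild-type cells. Its mock values were 5.02, 4.71 and 4.86 in Mll5-/- cells, against 5.48, 4.84 and 5.78 in wild-type cells. The groups overlapped in both treatments, and the log2 difference over both was -0.29 (SE 0.21, adjusted p = 0.713 in limma). The next 4 genes on that side, Lhfpl3, A930003O13Rik, 6030443J06Rik and Gm15421, had mean log2 signals between 2.19 and 2.90 over all arrays, below the median symbol, and differences between -0.05 and 0.11.

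Past Rint1, the first measured gene is Tomm7, a subunit of the protein import machinery of the mitochondrial outer membrane. With NAC, it had log2 signals of 6.84, 6.49 and 6.52 in Mll5-/- cells, against 5.64, 6.20 and 5.90 in wild-type cells. Its mock values were 6.19, 5.92 and 5.97 in Mll5-/- cells, against 6.70, 6.29 and 5.89 in wild-type cells. Mll5-/- arrays were all above wild-type arrays with NAC, as in 6.39% of all genes, and overlapped them in mock. The interaction, the genotype difference with NAC minus that in mock, was 0.97 (SE 0.29) and did not pass in limma (adjusted p = 0.999, unadjusted p = 0.00480).

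**Figure D3:**
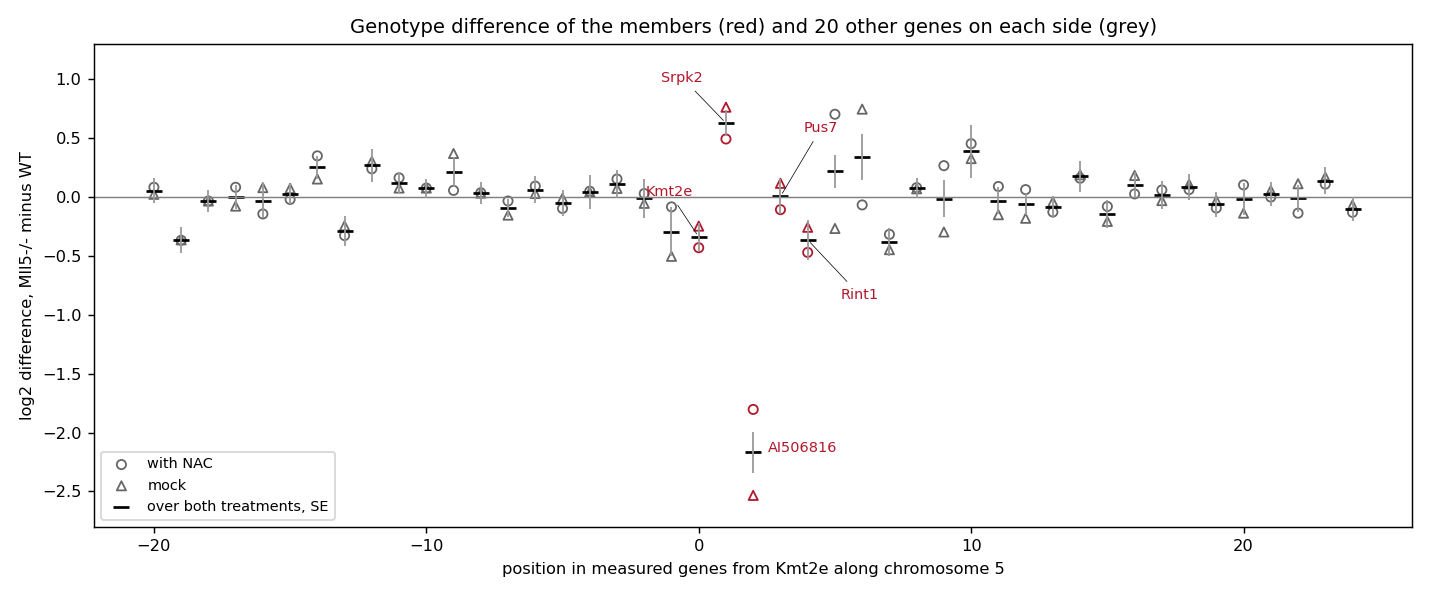
Log2 difference, Mll5-/- minus wild type (vertical axis), of the 5 genes in red and of 20 other genes on each side in grey, by position in measured genes from Kmt2e (horizontal axis). Circles are the NAC comparison, triangles the mock comparison, and bars the mean over both with its SE. Over both treatments, AI506816 and Srpk2, chosen by genotype differences, lie farthest from 0 and the 40 other genes stay within 0.39 of it. In single treatments, Tomm7 with NAC (0.70) lies above Srpk2 with NAC (0.49), and 2700038G22Rik in mock (0.75) lies close to Srpk2 in mock (0.76).

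The effect of NAC was asked next, averaged over the genotypes, which the choice of the genes did not use. None of the 5 genes passed in limma, where 0.00451% of all genes passed, and none had an unadjusted p under 0.05, against 7.43% of all genes. Kmt2e had a mean log2 signal of 7.34 with NAC and 7.40 in mock, a difference of -0.06 (SE 0.12, 95% interval -0.32 to 0.20, adjusted p = 0.948 in limma). Srpk2 differed by 0.08 (SE 0.11), Pus7 by -0.05 (SE 0.15) and Rint1 by 0.03 (SE 0.17), with adjusted p from 0.926 to 0.980 in limma. AI506816 had the largest of these differences, with means of 5.42 with NAC and 5.09 in mock. It was 0.34 (SE 0.17, 95% interval -0.04 to 0.71, adjusted p = 0.731 in limma), and the 6 NAC and 6 mock arrays overlapped.

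Within genotypes, the AI506816 values with NAC lay above those in mock in Mll5-/- cells and among them in wild-type cells. In Mll5-/- cells its mean log2 signal was 4.52 ± 0.25 with NAC and 3.82 ± 0.50 in mock (SD, n = 3 each), and the lowest NAC value, 4.37, was above the highest mock value, 4.28. Such a separation upward was seen in 5.08% of all genes. In wild-type cells its mean was 6.32 ± 0.08 with NAC and 6.35 ± 0.42 in mock. The difference with NAC was 0.70 (SE 0.25, adjusted p = 0.790 in limma) in Mll5-/- cells, where 0.00451% of all genes passed. It was -0.03 (SE 0.25, adjusted p = 0.993 in limma) in wild-type cells, where 0.00902% passed. The Mll5-/- mock arrays in this comparison are also among those from which the gene was chosen.

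The interaction tested whether the genotype difference differed between NAC and mock. It was 0.73 (SE 0.35, 95% interval -0.02 to 1.48, adjusted p = 0.999 in limma) for AI506816, whose genotype difference was -1.80 with NAC and -2.53 in mock. Without one array at a time it lay between 0.47 and 0.97. For Srpk2 it was -0.27 (SE 0.22), with genotype differences of 0.49 with NAC and 0.76 in mock. For Kmt2e it was -0.18 (SE 0.24), for Pus7 -0.22 (SE 0.30) and for Rint1 -0.21 (SE 0.34). Without one array at a time, it ran from -0.42 to -0.09 for Srpk2, from -0.36 to -0.07 for Kmt2e, from -0.45 to 0.0067 for Pus7 and from -0.48 to -0.02 for Rint1. None of the 5 passed in limma and none had an unadjusted p under 0.05, against 4.21% of all genes, and 0% of all genes passed. The intervals are wide, and that of Srpk2 ran from -0.75 to 0.21. AI506816 and Srpk2 were chosen by genotype differences on these arrays, and the mock difference is a part of the interaction. Their smaller differences with NAC are therefore not independent of that choice, and nothing is read from the direction of their interactions.

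**Figure D4:**
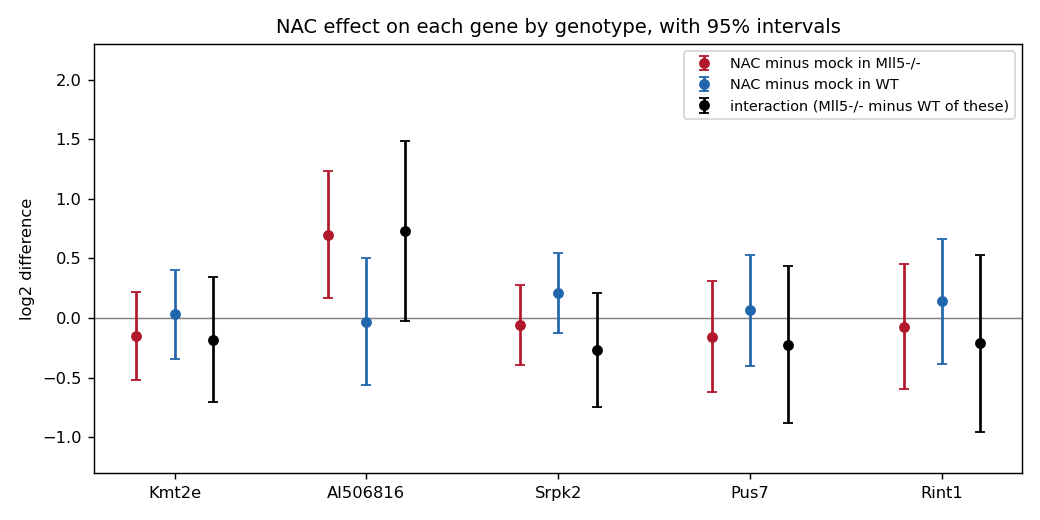
Log2 difference (vertical axis) with its 95% interval for each gene (horizontal axis), as NAC minus mock in Mll5-/- cells in red and in wild-type cells in blue, and the interaction in black. The AI506816 interval in Mll5-/- cells, 0.17 to 1.23, lies above 0, and the intervals of all 5 interactions include 0.

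Relatives and partners of the 5 genes were measured as a further description of the genotype difference over both treatments. Of 7 relatives of Kmt2e, which carry SET domains and of which 6 are lysine 4 methyltransferases of histone H3, 5 were lower and 2 higher in Mll5-/- cells, with a median log2 difference of -0.14 beside 0.00 over all genes. The largest were those of Setd1b (-0.22, SE 0.13), Kmt2a (-0.21, SE 0.12) and Kmt2b (-0.15, SE 0.11). None passed in limma or had an unadjusted p under 0.05, where 0.00902% and 9.08% of all genes did. Of 8 measured relatives and substrates of Srpk2, 7 were higher and 1 lower, with a median of 0.07. Of all 22180 genes, 11237 were higher in Mll5-/- cells. The smallest of the 7 were Srsf3 (0.018, SE 0.084), Srsf5 (0.025, SE 0.075) and Srsf2 (0.048, SE 0.071), each within 1 SE of no difference. The Srpk2 relative Srpk3 had a difference of -0.21 (SE 0.20), and the splicing factors Srsf6 and Srsf4 had 0.17 (SE 0.16) and 0.11 (SE 0.11). None passed in limma or had an unadjusted p under 0.05 there either.

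Of 12 other pseudouridine synthases, 7 were higher and 5 lower, with a median of 0.05. None passed in limma, and Rpusd3 (-0.39, SE 0.16) and Dkc1 (0.27, SE 0.10), the enzyme of the box H/ACA particles, had an unadjusted p under 0.05, as did 9.08% of all genes. Rpusd1 had a difference of -0.30 (SE 0.19). Of 8 tether partners of Rint1, 4 were higher and 4 lower, with a median of -0.01. None passed in limma, and Stx18, a SNARE protein of the endoplasmic reticulum (-0.35, SE 0.12), and Scfd2 (0.28, SE 0.10) had an unadjusted p under 0.05, beside the same 9.08% of all genes. Scfd1, a regulator of SNARE proteins, had 0.25 (SE 0.14).

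The genes closest in pattern were found among 10446 others above the median symbol, by the root-mean-square distance between the 12 array values after centring each gene on its own mean. Closest to Kmt2e was Atf7, a transcription factor, at a distance of 0.09 log2 units, where the median gene was at 0.34. Yipf2 followed at 0.14 and Adgrg3, an adhesion receptor, at 0.15. Atf7 had mean log2 signals of 6.30 in Mll5-/- and 6.80 in wild-type cells with NAC, and of 6.55 in Mll5-/- and 6.69 in wild-type cells in mock. Closest to Srpk2 were Xpo1, the nuclear export receptor, at 0.17, Armc1 at 0.20 and Apoe, the lipid carrier, at 0.20, where the median gene was at 0.43. Xpo1 ranged from 7.80 to 8.04 in Mll5-/- cells and from 7.22 to 7.71 in wild-type cells, and Apoe from 5.29 to 5.64 in Mll5-/- cells and from 4.81 to 4.99 in wild-type cells. Xpo1 and Apoe separated the genotypes upward, as 0.311% of all genes did. Nothing is read from this, since they were picked for their closeness to the Srpk2 values.

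For AI506816, S100a9, a calcium-binding protein of granulocytes, was nearest at 0.67, followed by Fxyd1, a regulator of the sodium pump, and Clnk, an adaptor of immune receptors, both at 0.75, where the median gene was at 1.18. A gene without any variation would lie at 1.15 from AI506816, at 0.36 from Srpk2 and at 0.25 from Kmt2e. The AI506816 pattern was thus matched only in part by its nearest genes. S100a9 ranged from 4.26 to 6.47 in Mll5-/- cells and from 5.78 to 6.96 in wild-type cells, so its genotypes overlapped. Fxyd1 ranged from 2.82 to 3.25 in Mll5-/- cells and from 3.63 to 4.41 in wild-type cells, and Clnk from 5.21 to 5.91 in Mll5-/- cells and from 6.01 to 7.03 in wild-type cells. The log2 difference was -0.91 for Fxyd1 and -0.85 for Clnk. Both separated the genotypes downward, as 0.234% of all genes did, and nothing is read from this, since they were picked for their closeness to the AI506816 values.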

How the data were processed

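The authors deposited log2 signals. Per the submitters' processing notes, which give no versions, they used Affymetrix Power Tools and RMA, a method that removes background, brings arrays to one distribution of values and summarises the probes of a set. Nothing states the log base, which was taken as 2 from a range of 0.74 to 13.23. Of 41345 probe sets, 23521 carried 1 gene symbol in the platform annotation, 23328 of them found in the GRCm38.p6 gene table and 0 renamed. Since no build is named for the array annotation, that table gave only names and gene order. Each of the 22180 symbols was represented by its probe set of highest mean.

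With limma 3.58.1 (R 4.3.3), 4 group means were fitted over the 12 arrays, and Benjamini-Hochberg adjustment ran over all symbols at a threshold of 0.05. The procedure was tested on simulated data. Beside the 5 genes, the text names the 5 nearest measured genes on each side of Kmt2e, flanking genes that passed or did not overlap, up to 3 members of each partner list with the largest difference, and the 3 genes closest in pattern, where Gm and Rik names were left out. Any gene named beyond this rule was singled out after its values were seen. Genes, lists and tests were chosen with earlier results of these data known. Alternatives were a filter on dim genes, array weights, median centring, a further quantile normalization, a trended and robust variance, all probe sets, a replicate block, other flank sizes and leaving out arrays. The number of arrays limits the precision. Python 3.11.15 and matplotlib 3.10.9 drew the figures.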

Additional observations from a re-analysis of the deposited data

How the results depend on the processing

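Of 378 repeated values, 360 were unchanged and 18 were not. A tested value counted as unchanged if it kept its direction and side of the threshold, however small a change of sign, and the untested genotype differences of the 4 neighbours if they moved by less than the spread between replicates. A count did so within 1.5 times its value. Of the genotype differences, that of Pus7 changed sign, with -0.16 to 0.04 over the other alternatives and -0.11 to 0.12 without 1 array each. The AI506816 genotype difference lay between -2.18 and -2.08, and that of Srpk2 between 0.60 and 0.64, over all alternatives that did not leave out 1 array. The exact permutation p of Kmt2e was 0.08 without both arrays of lowest weight, an alternative chosen after seeing the data, and ran from 0.005 to 0.075 without 1 array each, where fewer arrangements exist. The count of flanking genes with genotypes not overlapping was 2 with 40 genes on each side, and ran from 1 to 2 without 1 array each. The NAC effect over both genotypes changed sign without 1 array for Srpk2 (-0.013 to 0.15), Pus7 (-0.16 to 0.07) and Rint1 (-0.074 to 0.17), as did the interaction of Pus7 (-0.45 to 0.0067). None of these passed the threshold in any alternative.

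With the replicate number as a replicate block, the Kmt2e genotype difference over both treatments was -0.34 and no call changed. Same-numbered arrays of different groups deviated from their group means with correlations between -0.06 and 0.06 over 18 pairs, and 5 of 12 arrays correlated best with an array of their own number, so the numbers were not taken as pairing the samples. Detection of dim probe sets was not known, which limits what can be said of AI506816 in Mll5-/- cells.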
